A study of Mus musculus with 6 samples.

Results

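Cyp7a1, Cyp8b1, Cyp27a1, Cyp7b1, Cyp39a1 and Cyp2c70 are the 6 cytochrome P450 genes of mouse bile acid synthesis considered here, and the binding of the bile acid receptor FXR around them was read from ChIP-seq of mouse liver. Every peak that the authors assigned to one of these genes was taken, which gave 19 of the 20040 peaks of the control list and 12 of the 12495 peaks of the knockout list. The rule that picks the peaks uses the gene assignment and no measured level.

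All samples were livers of male C57BL/6 mice with floxed Bcl6 alleles (Bcl6 fl/fl). The controls, written WT, carried no other change, and the knockouts (Alb-cre, Bcl6 fl/fl), written LKO, also carried Cre under the albumin promoter, which is active in hepatocytes, so that other liver cells keep the repressor BCL6. There were 2 FXR ChIP libraries per genotype and 1 input library, which is chromatin sequenced without immunoprecipitation, and no age was given in the sources used here. The comparison asks whether FXR sits at the same places when hepatocytes lack BCL6. FXR ChIP does not measure Bcl6 itself, so the genotype labels could not be checked from these values.

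Bile acids are made from cholesterol in hepatocytes along a classical route, which opens with the 7α-hydroxylase CYP7A1, and an alternative route, which opens with the sterol 27-hydroxylase CYP27A1. CYP8B1 adds the 12α-hydroxyl group that makes cholic acid, and CYP2C70 makes the muricholic acids typical of mice. FXR is known to hold this synthesis down when bile acids are high, in large part through the repressor SHP (gene Nr0b2) and through a hormone from the intestine, and it classically binds an inverted repeat of a hexamer with a 1-base spacer, called IR1.

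FXR peaks lay around 5 of the 6 genes in both genotypes, and Cyp39a1 had none assigned. The WT list gave 7 peaks to Cyp7a1, 1 to Cyp8b1, 5 to Cyp27a1, 4 to Cyp7b1 and 2 to Cyp2c70. The LKO list gave 3, 1, 4, 2 and 2 to the same genes, and every one of these 12 LKO peaks overlapped a WT peak by at least 1 bp. Of the 19 WT peaks, 12 overlapped an LKO peak, against 49.5% of all WT peaks; in the LKO list the share over all peaks was 79.4%. The 7 WT peaks without an LKO peak belonged to Cyp7a1 (4), Cyp7b1 (2) and Cyp27a1 (1). Peaks were called on pooled libraries, so these counts have no replicate spread and were not tested.

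**Figure D1:**
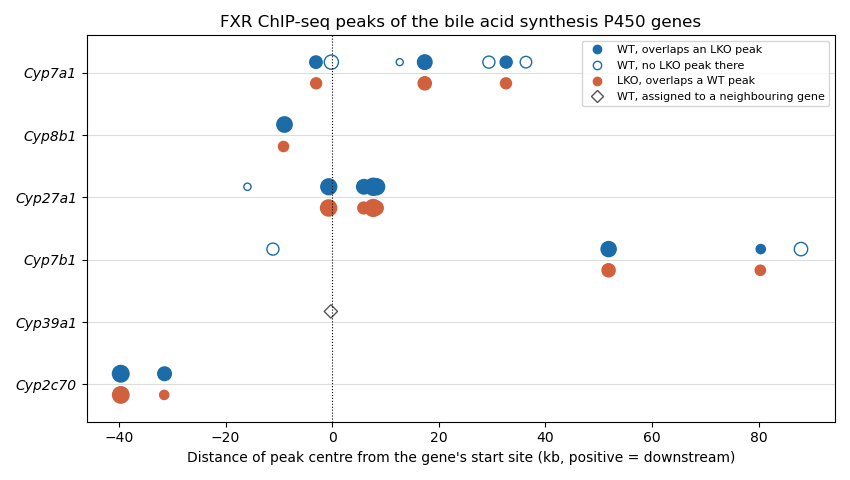
Each FXR peak is placed by the distance of its centre from the start site of its gene in kb, with WT above and LKO below each gene line and larger symbols for stronger peaks within their own list. Filled circles overlap a peak of the other genotype, the 7 open circles are WT peaks with no LKO peak there, and the open diamond beside Cyp39a1 is a WT peak at its promoter that was assigned to a neighbouring gene.

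The sequences at 5 peaks are shown because these peaks carry the strongest binding, the only IR1 matches and the largest drop described below. They are mouse reference sequence of GRCm38.p6 (the coordinates of mm10), plus strand, read 5′ to 3′. In the first 3, capitals mark the IR1 match; a match to AGGTCANTGACCT on either strand could differ from it at up to 2 of the 12 bases scored, and had to lie no more than 100 bp from the centre of the peak. In the Cyp27a1 peak, capitals mark the single hexamer AGGTCA on either strand. The Cyp8b1 peak held neither and has no capitals.
Cyp7b1, intron 1, 88.0 kb downstream, chr3:18155381-18155411: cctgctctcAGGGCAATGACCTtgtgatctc
Cyp7b1, 11.1 kb upstream, chr3:18254452-18254482: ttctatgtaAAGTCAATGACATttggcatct
Cyp2c70, 39.7 kb upstream, chr19:40226861-40227071: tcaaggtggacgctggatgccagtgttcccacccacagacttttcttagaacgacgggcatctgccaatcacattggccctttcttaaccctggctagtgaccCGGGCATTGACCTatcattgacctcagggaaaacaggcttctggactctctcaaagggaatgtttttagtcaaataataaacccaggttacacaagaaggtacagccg
Cyp27a1, intron 1, 7.7 kb downstream, chr1:74721125-74721335: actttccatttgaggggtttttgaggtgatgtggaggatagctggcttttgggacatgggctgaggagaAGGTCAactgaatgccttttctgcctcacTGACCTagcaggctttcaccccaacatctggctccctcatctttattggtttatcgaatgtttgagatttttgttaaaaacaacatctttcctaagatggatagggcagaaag
Cyp8b1, 9.1 kb upstream, chr9:121925335-121925545: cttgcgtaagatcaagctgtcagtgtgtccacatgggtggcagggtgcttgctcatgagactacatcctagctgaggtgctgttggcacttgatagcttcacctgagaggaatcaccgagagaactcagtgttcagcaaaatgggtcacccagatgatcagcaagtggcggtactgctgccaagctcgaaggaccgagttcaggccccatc

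An IR1 match was present in 3 of the 19 WT peaks, against 11.8% of all WT peaks, and in 1 of the 12 LKO peaks, against 16.2% of all LKO peaks. Windows of the same size 2 kb to the side of the peaks held one in 0.896% (WT) and 0.976% (LKO). The closest match to the repeat, with 1 mismatch, lay in Cyp7b1 intron 1, and those of Cyp7b1 upstream and of Cyp2c70 had 2 mismatches. Both Cyp7b1 matches lay in peaks found in WT alone, whereas the Cyp2c70 match lay in a peak of both genotypes. No peak of Cyp7a1, Cyp8b1 or Cyp27a1 held a match at this limit, where the best site had 3 mismatches in Cyp27a1, 4 in Cyp7a1 and 5 in Cyp8b1.

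The single hexamer AGGTCA, the half-site shared by many nuclear receptors, was found in 7 of the 19 WT peaks, against 40.3% of all WT peaks, and in 5 of the 12 LKO peaks, against 41.3%. It overlaps the IR1 match in both the Cyp2c70 and the Cyp7b1 intron peak. The longer site TCAAGGTCA, read by LRH-1 (gene Nr5a2), a receptor known for driving Cyp7a1 and Cyp8b1, was in 0 of the 19 WT and 0 of the 12 LKO peaks, against 1.2% and 1.04% of all peaks. The motif TTCNNNGAA, which BCL6 and STAT5 can both read, was in 4 of the 19 WT peaks, against 6.56%, and in 1 of the 12 LKO peaks, against 6.39%. Those 4 were the Cyp7a1 promoter, the Cyp7b1 peak 11.1 kb upstream and both Cyp2c70 peaks. A letter match describes these windows only.

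Levels are the deposited log2 tag values of each library, which were scaled within the 3 libraries of a genotype. A step of 1 is about a doubling at high values, but the scale draws low values together. The ChIP libraries held 19022618 and 2883717 tags in WT and 21287263 and 22637613 tags in LKO, so WT replicate 2 was the shallow one. In it the 19 WT peaks held an estimated 3.35 to 53.8 tags, with a median of 12.4, against 20.3 to 250.2 in WT replicate 1. Replicate 2 read higher than replicate 1 at 17 of the 19 WT peaks, and also at 84.7% of all WT peaks. Fewer cells with bound FXR and less FXR per cell cannot be told apart in such bulk tissue. As a check of the immunoprecipitation, the strongest peak of Nr0b2, the classic FXR target, ranked at percentile 99.9 in WT and 99.6 in LKO.

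Cyp7a1 encodes the rate-limiting enzyme of the classical route, and its WT peaks were many but of middling strength. Its 7 WT peaks spread over 39407 bp around the start site, 5 of them downstream and 2 upstream, and none lay inside the gene body. At least 7 peaks were assigned to 4.08% of the 9025 genes with a WT peak. There were 3 sites bound in both genotypes, at 3.0 kb upstream, 17.4 kb downstream and 32.6 kb downstream.

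The Cyp7a1 promoter peak, chr4:6275684-6275894, was centred 158 bp upstream of the start site. WT replicate 1 read 4.23, replicate 2 read 5.69 and the WT input read 1.05. The gap of 1.46 between the 2 WT libraries was at or above that of 94.5% of WT peaks, and the shallow library was the high one with an estimated 15.5 tags. The peak ranked at percentile 63.7 among WT peaks by strength. No LKO peak overlapped it, and the nearest LKO peak lay 2851 bp away, at the upstream Cyp7a1 site. Of all WT peaks in the same decile of strength, 63.2% overlapped an LKO peak.

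The other 3 WT peaks of Cyp7a1 without an LKO peak were intergenic and downstream. At chr4:6239168-6239378 the WT libraries read 4.24 and 4.36, with an input of -0.46. At chr4:6246125-6246335 they read 4.46 and 4.38, with an input of -0.44. The weakest, chr4:6262852-6263062, read 3.36 and 3.48 and ranked at percentile 7.42 in its list. In each the ChIP libraries stood well above the input, and the replicates differed by at most 0.12. WT replicate 2 held only an estimated 6.16, 6.23 and 3.35 tags there, in the order given. The log2 scale draws such low values together, so the closeness says little about agreement. Where the LKO list has no peak, no LKO value is given, so binding there was not called rather than shown to be lost.

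The 3 Cyp7a1 peaks found in both genotypes were compared as relative levels, the log2 value minus the median over all 9918 shared peaks of the same library. At 3.0 kb upstream, chr4:6278575-6278785, the WT libraries read -1.07 and -0.47 and the LKO libraries -0.61 and -0.45. At 17.4 kb downstream, chr4:6258155-6258365, they read -0.23 and -0.13 in WT and -0.35 and 0.10 in LKO. At 32.6 kb downstream, chr4:6242880-6243090, they read -0.90 and -0.81 in WT and -0.29 and -0.78 in LKO. The genotypes overlapped at the first 2. At the third both LKO libraries lay just above both WT libraries, by 0.32 on average (pooled SD 0.25, n = 2 per genotype), and the difference was -0.011 for the values as deposited, where the median over all shared peaks was -0.30.

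Cyp8b1 encodes the 12α-hydroxylase, and its peak showed the deepest drop among the P450 genes. It was intergenic, at chr9:121925335-121925545, 9.1 kb upstream of the start site. In WT the deposited log2 values were 5.09 and 5.78 against an input of -0.30, and in LKO they were 4.32 and 4.23 against an input of -0.13. Relative to the median shared peak the WT libraries read 0.075 and 0.25 and the LKO libraries -0.72 and -0.61. Both LKO libraries lay below both WT libraries, and the difference of -0.83 was larger than the pooled SD of 0.10 (n = 2 per genotype).

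The same Cyp8b1 peak ranked at percentile 76.5 of the WT list and at 27.5 of the LKO list, which differ in length and content. Among the shared peaks alone, the mean percentile of the 2 libraries was 55.7 in WT and 20.5 in LKO. A relative-level difference of -0.83 or lower was seen at 4.93% of all shared peaks. Its Peak Score, the tags of the pooled libraries per 10000000, was 42.9 in WT and 13.0 in LKO. Leaving out any 1 ChIP library gave differences between -0.91 and -0.74. With 2 libraries against 2, the smallest two-sided p that an exact permutation test allows is 0.333, so no test was run here or at any other shared peak.

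Around Cyp8b1, 4 shared peaks assigned to Ackr2, a chemokine-scavenging receptor gene next to it, were also found within 50 kb of the start site. The Ackr2 intron peaks at chr9:121903658-121903868 and chr9:121905565-121905775 differed by -0.71 (pooled SD 0.52) and -0.75 (pooled SD 0.16) in the same direction as the Cyp8b1 peak, with both LKO libraries below both WT libraries. Their WT inputs were 1.80 and 2.28, against -0.17 and -0.14 in LKO, and the part of the input in this was not tested. The other 2 Ackr2 peaks, further off, differed by 0.22 (pooled SD 0.52) and -0.16 (pooled SD 0.57), which is within the spread.

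Cyp27a1, which opens the alternative route, carried the strongest FXR binding of the 6 genes. Of its 5 WT peaks, 1 lay at the promoter, 3 in intron 1 and 1 in the last exon of the upstream gene Ttll4. The intron peak at chr1:74721125-74721335, whose sequence is shown above with 2 AGGTCA hexamers on opposite strands, read 6.98 and 7.49 in WT and 6.91 and 6.83 in LKO. Its rank by strength was percentile 97.0 in WT and 94.7 in LKO. The annotation places it in an RMER6B element, an endogenous retroviral long terminal repeat. Its WT input of 1.87 was just above the 95th percentile of WT inputs (1.85), and its LKO input was 0.27.

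Relative to the median shared peak, this Cyp27a1 intron site read 1.97 and 1.96 in WT and 1.87 and 1.98 in LKO. The genotypes overlapped, and the difference of -0.040 was within the pooled SD of 0.058 (n = 2 per genotype). Such a small sample cannot show that the level was equal.

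The neighbouring intron 1 peak of Cyp27a1, 8.3 kb downstream at chr1:74721772-74721982 in a B1 repeat, was lower in LKO. It read 0.41 and 0.64 in WT and -0.23 and 0.25 in LKO, relative to the median shared peak. Both LKO libraries lay below both WT libraries, by -0.51 on average (pooled SD 0.27). The LKO peak centre lay 48 bp from the WT one, and the 2 WT intron peaks were 647 bp apart. The third intron peak, 5.9 kb downstream at chr1:74719375-74719585, read -0.25 and -0.17 in WT and -0.60 and -0.18 in LKO, which overlap. Its WT input of 2.64 was higher than 98.1% of WT inputs, and its LKO input was -0.092.

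At the Cyp27a1 promoter, chr1:74712787-74712997, the 2 WT libraries stood apart. They read 6.03 and 5.45 as deposited, with the deep library high, the reverse of the usual order in this list, and -0.26 in the input. Relative to the median shared peak they read 1.01 and -0.082, while the LKO libraries read 0.95 and 1.17. The mean was higher by 0.60 in LKO, slightly more than the pooled SD of 0.56, yet the genotypes overlapped, and on the scale of library totals it was -0.55, where the median over all shared peaks was -1.12. The Ttll4 exon peak, chr1:74697525-74697735, was weak at 3.42 and 3.49 with an input of -0.57, and had no LKO partner.

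Cyp7b1, the oxysterol 7α-hydroxylase that follows CYP27A1, was bound far from its start site. Its 4 WT peaks were 3 in the long intron 1 and 1 intergenic, and the 2 shared ones moved in opposite directions. The peak 51.9 kb downstream, chr3:18191360-18191570, read 0.048 and 0.073 in WT and -0.16 and -0.092 in LKO. Both LKO libraries lay below both WT libraries by a small step of -0.19 (pooled SD 0.036).

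The peak 80.4 kb downstream of the Cyp7b1 start site, chr3:18162814-18163024, was weak in WT, at percentile 20.8. It read -1.25 and -1.69 in WT and -0.62 and -0.67 in LKO, relative to the median shared peak. Both LKO libraries lay above both WT libraries, by 0.83 (pooled SD 0.22). On the scale of library totals the difference was -0.32, where the median over all shared peaks was -1.12. WT replicate 2 held an estimated 4.29 tags there.

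Both IR1-bearing peaks of Cyp7b1 came from the WT list alone. The intron peak with the closest IR1, chr3:18155263-18155473, read 3.98 and 5.50 with an input of 1.04, so its replicates differed by 1.52, at or above 95.4% of WT peaks. The upstream one, chr3:18254358-18254568, read 3.84 and 5.00 with an input of -0.46. In both the shallow library was the higher one, with an estimated 13.6 and 9.59 tags. Of WT peaks of like strength, 51.5% and 41.4% overlapped an LKO peak.

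Cyp2c70 makes muricholic acids, and both of its peaks lay upstream and were found in both genotypes. The stronger, which carries the IR1 shown above, was assigned to Cyp2c70 although it lies in intron 5 of the neighbouring gene Pdlim1. It read 6.32 and 6.42 in WT with an input of 1.14, and 6.49 and 6.04 in LKO with an input of 0.17. Relative to the median shared peak this was 1.30 and 0.89 in WT and 1.44 and 1.19 in LKO, so the genotypes overlapped and the difference of 0.22 was within the pooled SD of 0.24.

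The weaker Cyp2c70 peak was intergenic, 31.5 kb upstream at chr19:40218636-40218846. It read -0.79 and -0.16 in WT and -0.73 and -0.92 in LKO. The groups overlapped, and the mean difference of -0.35 barely passed the pooled SD of 0.33.

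Cyp39a1 encodes a 24-hydroxycholesterol 7α-hydroxylase, and no peak of either list was assigned to it. A WT peak at chr17:43667019-43667229 was nevertheless centred 248 bp upstream of its start site, and the authors' annotation column names the Cyp39a1 promoter there. It was assigned to the gene Slc25a27 because that start site is nearer, at 90 bp. The WT libraries read 3.85 and 3.85 with an input of -0.52, which put it at percentile 22.4 among WT peaks. WT replicate 2 held an estimated 4.32 tags at this peak. No LKO peak overlapped it, and the LKO peak nearest to the Cyp39a1 start site lay 190869 bp away, in Rcan2. Among WT peaks in the same decile of strength, 19.7% overlapped an LKO peak.

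**Figure D2:**
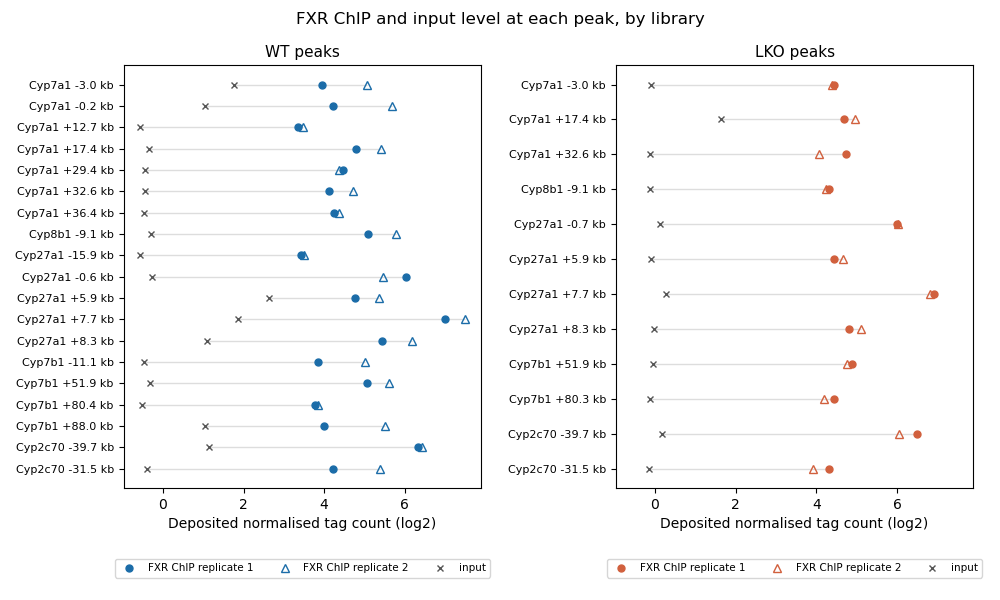
Deposited log2 tag values are plotted for each of the 19 WT peaks and 12 LKO peaks, with filled circles for ChIP replicate 1, open triangles for replicate 2 and crosses for the input. Every ChIP value stands above its input, by the mean of the 2 libraries most widely at the Cyp27a1 peak 7.7 kb downstream in LKO (6.60) and least at the Cyp27a1 peak 5.9 kb downstream in WT (2.43), whose input was 2.64.

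ChIP stood above input at all of these peaks, as the authors' filter on the lists requires. The mean of the 2 ChIP values exceeded the input by a median of 4.87 at the 19 WT peaks, against 4.49 over all WT peaks, and by 4.58 at the 12 LKO peaks, against 4.38. Among WT peaks the range was 2.43 to 6.00, and among LKO peaks 3.19 to 6.60. The WT peaks with an input above the 95th percentile of the list were both in Cyp27a1 intron 1, and 0 LKO peaks passed that limit.

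Over the 12 shared peaks, relative levels showed no common direction. They are centred on the shared peaks of each library, so a step common to all shared peaks cannot show in them. Both LKO libraries lay above both WT libraries at 2 peaks, against 29.8% of all shared peaks, and below them at 3, against 25.2%, while the genotypes overlapped at 7. The differences ran from -0.83 to 0.83 with a median of 0.0086, against 0.026 over all 9918 shared peaks. The mean difference passed the pooled SD at 7 of the 12, of which 3 were higher in LKO, against 33.7% of all shared peaks, and 4 lower, against 29.4%. The 4 lower ones were at Cyp8b1, Cyp7b1 51.9 kb downstream, Cyp27a1 8.3 kb downstream and Cyp2c70 31.5 kb upstream, and the 3 higher ones were at Cyp7a1 32.6 kb downstream, the Cyp27a1 promoter and Cyp7b1 80.4 kb downstream. Each of these 7 kept its sign under the 6 other settings that measure each library against its own shared peaks. Those settings include leaving out each ChIP library. The 3 higher ones changed sign under some or all of 4 further scales, on which shared peaks as a whole stand lower in LKO.

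**Figure D3:**
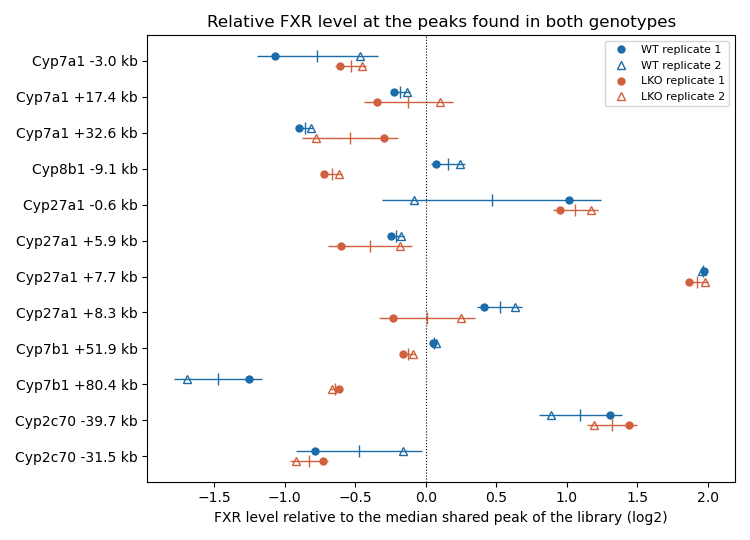
Relative FXR level in log2 units is drawn for the 12 shared peaks, as each library's value minus the median shared peak of that library, with bars for the mean ± SD of 2 libraries. The Cyp8b1 peak is the clearest step down in LKO (0.075 and 0.25 against -0.72 and -0.61), and the Cyp27a1 peak 7.7 kb downstream lies near 2 in all 4 libraries.

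The scale matters because the Peak Score fell almost everywhere. All 12 shared peaks had a lower Peak Score in LKO, as did 95.7% of all shared peaks, and the median ratio of LKO to WT was 0.520 at the 12 peaks and 0.507 over all. The lowest ratio was 0.303 at Cyp8b1 and the highest 0.762 at the Cyp7b1 peak 80.4 kb downstream. For all shared peaks the median difference was -0.30 for the values as deposited and -1.12 on the scale of library totals. WT scores rest mainly on replicate 1, which supplied most of the pooled WT tags.

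**Figure D4:**
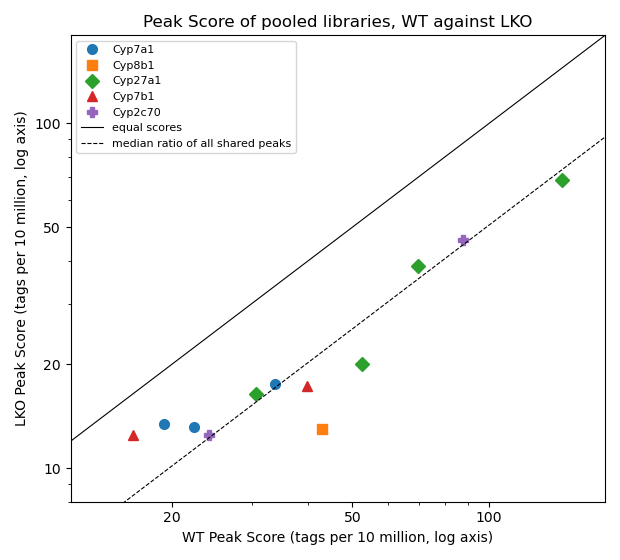
Peak Score of the pooled libraries, in tags per 10000000 on log axes, is shown for the 12 shared peaks with WT across and LKO upward. All points lie below the line of equal scores and most lie near the dashed line at the median ratio of all shared peaks (0.507), with Cyp8b1 farthest below it at 0.303.

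The 7 WT peaks without an LKO peak were weaker than the 12 shared ones. Their median percentile in the WT list was 43.1, against 70.9 for the shared ones, and 2 of the 7 stood at or above the list median, against 9 of the 12. In WT replicate 2 the estimated tags were under 10 at 5 of the 7 and at 2 of the 12. Weak peaks overlapped less often in the whole WT list too. There the share with an LKO peak was 11.2% in the lowest decile of strength and 95.3% in the highest. The LKO ChIP libraries held 21287263 and 22637613 tags, more than either WT library. Strength and genotype cannot be told apart for these peaks, and the part of depth was not tested. By annotation the 19 WT peaks were 9 intergenic, 7 intronic, 2 promoter and 1 exonic. Over all WT peaks these classes held 35.3%, 46.5%, 11.4% and 2.78%, in that order. Of the 19, 2 lay within 1 kb of a start site, against 16.7% of all WT peaks.

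Other enzymes of bile acid synthesis were listed for comparison. Of these 16 genes, 13 had a WT peak and 11 an LKO peak, and 10 of the 13 had both. Of their 49 WT peaks 46.9% overlapped an LKO peak, a share that was 63.2% for the P450 genes. Akr1d1, the 5β-reductase that shapes the steroid ring, had the best placed peak, at percentile 98.8 in WT and 98.1 in LKO. Baat, which conjugates bile acids to taurine, and the dehydrogenases Akr1c6 and Akr1c14 had 3 WT peaks each and 0 LKO peaks. All of these WT peaks lay below the list median, the best at percentiles 46.9, 30.4 and 41.6 in that order. Over all WT peaks, weak or strong, 49.5% overlapped an LKO peak. Hsd3b7 had 1 LKO peak and 0 WT peaks, and no peak was assigned to Acot8 or Cyp46a1.

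Of 11 genes for regulators of these enzymes, 11 had a WT peak and 10 an LKO peak, with 52 and 28 peaks. Of the 52 WT peaks 46.2% overlapped an LKO peak, against 49.5% of all WT peaks. Nr0b2 had 3 peaks in each genotype and all of them overlapped. Nr5a2 had 15 WT and 6 LKO peaks, where the whole lists held 20040 and 12495. Fgfr4, the receptor for the intestinal hormone FGF15, had 1 WT peak, at percentile 69.6, and 0 LKO peaks, while its co-receptor gene Klb had 5 and 3. Of WT peaks in the same decile of strength as the Fgfr4 peak, 63.2% overlapped an LKO peak. For scale, 69.2% of the 9025 genes with a WT peak also had an LKO peak, against 5 of 5 among the P450 genes. The bases differ, since the median over those 9025 genes was 1 WT peak and the P450 genes had 1 to 7. A gene with more peaks has more chances to have an LKO peak.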

How the data were processed

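FXR ChIP-seq was deposited as 1 peak table per genotype. Per the labels and the study's methods, the authors aligned reads of 100 bp to mm10, kept unique alignments and had HOMER call peaks per genotype, pooling both ChIP libraries and using the input as control. The submitters' processing notes name Bowtie 1.2 and HOMER 4.10. Per the file headers, the authors then ran DESeq2 of ChIP against input within each table keeping those past an adjusted p-value limit of 0.05 and a log2 fold change limit of 1. Those comparison columns hold the authors' results and were not used.

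The deposited value per library is on a log2 scale, taken as the regularized log2 of the authors' DESeq2 run on tags scaled to library totals, which draws low values together. The header calls it a tag count, but values are not whole and some are below 0. The Peak Score is a deposited signal of pooled tags per 10000000. The focus ratio is a deposited fraction and was not used in any comparison. Estimated tags were derived from the log2 value, read as a plain log2, and the library totals in the headers. Low estimates are therefore rough. Over all peaks they came to a median of 0.903 (WT) and 0.959 (LKO) of the tags that the Peak Score implies.

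Peaks were taken by the authors' gene assignment and paired across genotypes by an overlap of at least 1 bp. Since the tables were normalized separately, relative level was the log2 value minus the median shared peak of the library, with mean, SD and pooled SD over 2 libraries and no test. Each ChIP replicate had its own identifier in its label, taken here as a separate mouse. IR1 and other motifs were scanned in GRCm38.p6. Overlap and motif code was tested on simulated data. The genes and gene lists were chosen with earlier results of these data known. All peaks of the 6 genes were named, together with other peaks within 50 kb of their start sites where a result turned on them. Alternatives covered peak strength, input, tags, overlap, scaling, single libraries and mismatches. Python 3.11.15, numpy 2.4.6, pandas 2.3.3 and matplotlib 3.10.9 were used.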

Additional observations from a re-analysis of the deposited data

How the results depend on the processing

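No paired analysis was possible because the result comes from no test and the tables of the genotypes were normalized separately. The 19 WT peaks became 11 when peaks under the list median were dropped and 12 with at least 10 estimated tags in both ChIP libraries, and the 12 LKO peaks became 6 above the list median. IR1 matches went from 3 to 1 (WT) and from 1 to 0 (LKO) with at most 1 mismatch, and to 7 and 5 with at most 3. The median difference at the 12 shared peaks moved from 0.0086 to -0.47 against the median of all peaks and to -0.32 for the values as deposited. On 2 scales chosen after seeing the data it was -1.14 (library totals) and -0.94 (log2 ratio of Peak Scores). Leaving out 1 ChIP library gave -0.13 to 0.052, and ChIP minus input then ran from 4.57 to 5.06 (WT) and 4.63 to 4.70 (LKO). Among the 7 peaks whose difference passed the pooled SD, 3 changed sign. The Cyp7a1 peak 32.6 kb downstream went to -0.16 against all peaks, -0.011 as deposited, -0.83 by library totals and -0.76 by Peak Score. The Cyp27a1 promoter went to -0.55 and -0.86 on the last 2 scales, and the Cyp7b1 peak 80.4 kb downstream to -0.32 and -0.39. On these 4 scales the shared peaks as a whole stand lower in LKO, which the relative level takes out by definition. Against the median of all peaks, that step depends only on where shared peaks stand in each list. They made up 49.5% of the WT list and 79.4% of the LKO list. The cause of the step on the other scales was not tested. Of 120 values recomputed for single peaks, 73 stayed within the replicate spread or, for percentiles, kept their sign. The sign changed in 25, at 8 of the 12 peaks, of which 20 were under those 4 scales and 17 were at the 5 peaks whose difference was within the pooled SD. The overlap count was 12 under the other overlap rules and 11 with lists of the same length. Depth limits the WT peaks most, since 1 of the 2 WT ChIP libraries held 2883717 tags.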

Other observations

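Within 50 kb of the Cyp2c70 start site, 2 further LKO peaks lay in intron 4 of Pdlim1, at chr19:40231426-40231630 and chr19:40232734-40232938, with no WT peak there. The stronger of them read 5.31 and 5.14 with an input of 0.0086 and ranked at percentile 68.8 in LKO. They were the only LKO peaks without a WT partner found within 50 kb of any of the 6 start sites. Near Cyp27a1, 2 WT peaks assigned to Prkag3 had no LKO partner, and near Cyp8b1 the same held for 3 peaks at Fam198a and 1 at Ackr2. These WT peaks were weak, at percentiles from 9.63 to 39.6. Over all peaks, 49.5% of WT peaks and 79.4% of LKO peaks overlapped a peak of the other genotype.

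Repeat elements held 4 of the 19 WT peaks of the P450 genes, against 17.3% of all WT peaks, and 4 of the 12 LKO peaks, against 14.9%. At the Cyp7a1 site 3.0 kb upstream, in an L2b element, the input read 1.77 in WT and -0.11 in LKO, while at the Cyp7a1 site 17.4 kb downstream it read -0.35 in WT and 1.63 in LKO.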
